A study of Mus musculus with 2 samples.

Results

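Galanin is a neuropeptide that neurons cut from a precursor, preprogalanin, and release from dense-core vesicles. In the preoptic area (POA) of the hypothalamus it marks neurons best known for roles in sleep, parental and mating behaviour and body temperature, and many of these also make GABA. Its receptors are G protein-coupled: GALR1 and GALR3 act mainly through inhibitory Gi/o proteins, and GALR2 also through Gq. The values below follow the genes of this system, Gal (galanin) and its receptors Galr1, Galr2 and Galr3, in nuclei of the mouse POA after ultrasound. They were taken by gene symbol, are 4 of the 32285 genes of the tables, and each symbol matched 1 row.

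On GRCm38 (GENCODE M21), Gal (ENSMUSG00000024907) lies on the minus strand at chr19:3409915-3414544 and Galr1 (ENSMUSG00000024553) on the minus strand at chr18:82392380-82406777. Galr2 (ENSMUSG00000020793) lies on the plus strand at chr11:116280939-116283938, and Galr3 (ENSMUSG00000114755) on the plus strand at chr15:79041885-79043558.

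Single-nucleus RNA-sequencing was done on wild-type mice aged 6 to 9 weeks, and the sex of the pooled mice is not given in the sources used here. The US+ group received ultrasound to the POA and the US- group a sham treatment. The POA was dissected approximately 1 h later, 4 mice per group were pooled, and nuclei were sorted with an antibody to the neuronal protein NeuN. Each group is thus 1 library, so there was no replicate and no test: 95% intervals in brackets are exact and cover counting error only, and a ratio between US+ and US- compares these libraries, not the conditions.

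After filtering, 11040 US- and 9912 US+ nuclei were kept, 20952 in all, with medians of 7663 and 7376 unique molecular identifiers (UMIs, each 1 captured transcript). The minimum of 2000 UMIs removed 5.34% of US- but 16.7% of US+ barcodes, and 29 barcode sequences occurred in both libraries. The classes of nuclei were set by UMIs of marker genes. GABAergic nuclei numbered 5410 in US- and 5157 in US+, and glutamatergic nuclei 425 and 457. Striatal-type nuclei, which held UMIs of at least 4 of 8 genes of striatal projection neurons, made up 18.8% of US- and 6.42% of US+ nuclei (2081 and 636). Esr1 nuclei (at least 3 UMIs of the estrogen receptor gene) numbered 701 and 1043, Th-positive nuclei (at least 1 UMI of tyrosine hydroxylase, the rate-limiting enzyme of catecholamine synthesis) 240 and 238, and both may overlap the other classes. The libraries also differed in markers of other cells: the 9 striatal markers summed to 1340 CPM in US- (CPM, UMIs of a gene scaled to 1000000 UMIs of the same nuclei) against 947 CPM in US+, 6 oligodendrocyte markers to 55.9 and 97.0 CPM, and 6 astrocyte markers to 16.8 and 34.8 CPM, with every marker of these lists above 0 in both. How far these differences in composition bear on the ratios between libraries cannot be told apart from the treatment.

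The sequence before the start of Gal is shown because most results below turn on this gene. The 250 bases upstream of the RefSeq start (GRCm38.p6, chr19:3414545-3414794, read on the minus strand 5′ to 3′) are printed with the matches to the searched motifs in capitals.
Gal upstream: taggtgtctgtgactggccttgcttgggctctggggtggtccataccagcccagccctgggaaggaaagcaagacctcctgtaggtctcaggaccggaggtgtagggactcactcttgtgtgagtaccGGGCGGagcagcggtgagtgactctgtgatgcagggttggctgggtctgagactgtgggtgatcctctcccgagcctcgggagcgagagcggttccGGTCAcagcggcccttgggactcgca
Both strands were searched. The GC box GGGCGG matched once, 122 bases before the start, and is held by 32.7% of the 32851 RefSeq promoters in the same window. GGTCA, the core of the estrogen response element, matched once, 26 bases before the start, and is held by 35.2% of promoters. The full estrogen response element, an inverted repeat of this core spaced by 3 bases (0.0639% of promoters), the AP-1 motif TGACTCA bound by Fos and Jun proteins (4.46%) and the cyclic AMP response element TGACGTCA (1.55%) were not in these letters. The window was 62.4% G and C, against a median of 52.4% over all promoters.

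Gal was higher in the US+ library in all 6 groupings of nuclei examined, and its order among classes was alike in both libraries (plot of levels by class). Over all nuclei its level was 14.9 CPM from 1474 UMIs (US-) and 34.4 CPM from 2921 UMIs (US+), a ratio of 2.31 (2.17 to 2.46). As a background, 7.67% of the 20122 genes with at least 50 UMIs over both libraries were over 1.5-fold higher in US+ and 3.36% were over 1.5-fold lower. Th-positive nuclei held by far the most Gal, 83.5 CPM (72.2 to 96.0) in US- and 133 CPM (118 to 148) in US+, with a ratio between libraries of 1.59 (1.33 to 1.91). Esr1 nuclei followed with 23.2 CPM (19.9 to 26.8) and 40.9 CPM (37.4 to 44.7). GABAergic nuclei were close behind with 17.4 CPM (16.3 to 18.6) and 37.6 CPM (35.9 to 39.4), and in US+ the intervals of the Esr1 and GABAergic classes overlapped.

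**Figure D1:**
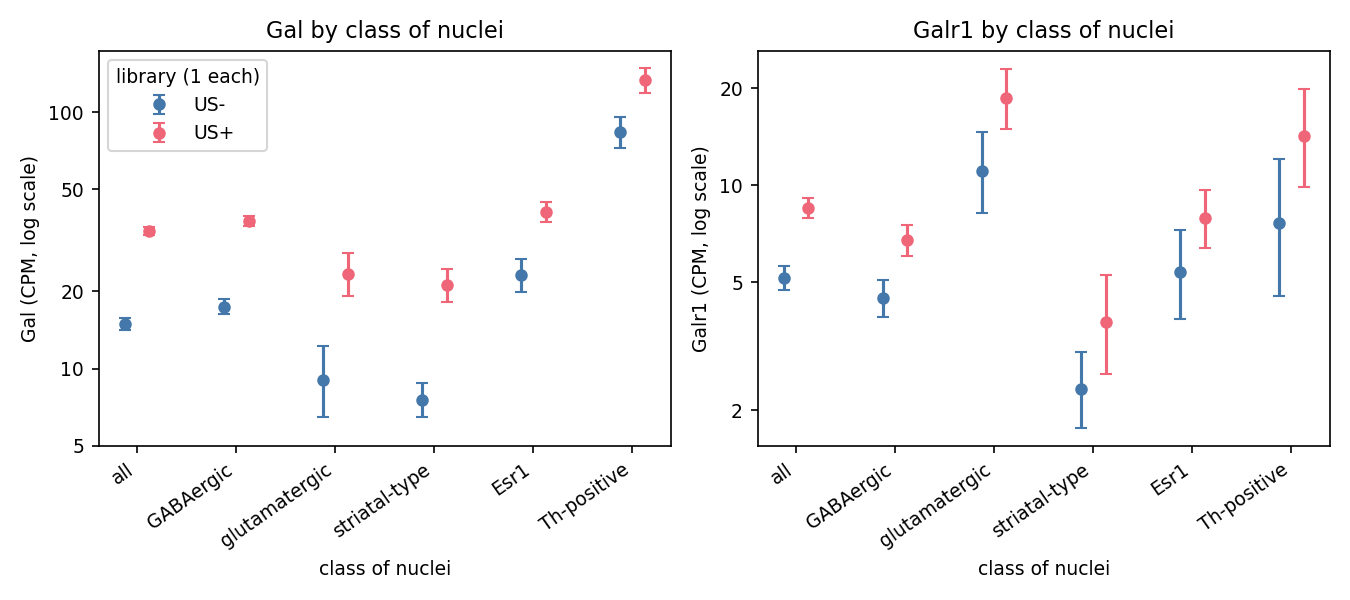
Levels of Gal (left) and Galr1 (right) in CPM, on log axes, by class of nuclei in the US- (blue) and US+ (red) library, with exact 95% counting intervals as bars. Th-positive nuclei were highest for Gal (83.5 CPM in US- and 133 CPM in US+), glutamatergic nuclei highest for Galr1 (11.1 and 18.6 CPM), and striatal-type nuclei lowest for both genes.

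Glutamatergic nuclei were at the level of striatal-type nuclei. They held 9.03 CPM (40 UMIs) in US- and 23.4 CPM (108 UMIs) in US+, against 7.56 CPM (181 UMIs) and 21.1 CPM (185 UMIs) in striatal-type nuclei. The ratio of the glutamatergic to the striatal-type level was 1.19 (0.825 to 1.69) in US- and 1.11 (0.867 to 1.41) in US+, so no glutamatergic Gal above that level was detectable at this depth. GABAergic nuclei exceeded it in both libraries, by 2.30-fold (1.96 to 2.72) in US- and 1.78-fold (1.53 to 2.09) in US+. Th-positive nuclei exceeded it by 11.04-fold (8.98 to 13.6) and 6.29-fold (5.23 to 7.59).

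Striatal projection neurons are not known as a main source of galanin, so their level served as the measure of free RNA that droplets take up. Empty droplets were not analysed here, so this measure was not checked against them. This level itself was 2.79-fold (2.26 to 3.44) higher in US+, the highest ratio between libraries of any class. The share of nuclei with a Gal UMI showed the same order. Gal-positive nuclei made up 9.00% of US- (994 nuclei) and 18.7% of US+ nuclei (1851). In the striatal-type class the share was 7.02% in US- and 15.9% in US+, with median depths of 9976 and 12322 UMIs, so a single Gal UMI in a nucleus was read as background. In the Th-positive class 26.7% and 42.4% of nuclei were Gal-positive, with median depths of 8336 and 8275 UMIs. With each nucleus thinned to 2000 UMIs, Gal-positive shares were 3.01% in US- and 6.72% in US+ over all nuclei, 1.92% and 3.93% in striatal-type nuclei, and 12.1% and 18.9% in Th-positive nuclei. With the striatal-type level of each library subtracted, GABAergic nuclei kept 9.86 CPM in US- and 16.5 CPM in US+, and Th-positive nuclei 75.9 and 112 CPM. Striatal-type nuclei were deeper than GABAergic nuclei (medians of 8242 and 8176 UMIs), and Gal in CPM was lower in deeper nuclei, so the subtraction may understate the background. It may also overstate it, because the class held nuclei outside the clusters of striatal genes (0, 8 and 36, described below). The class had 56 (US-) and 33 (US+) Galr1 UMIs, against 4 and 0, 1 and 1, and 1 and 0 in these clusters. Gal stood at 7.29 and 17.3 CPM in cluster 0 and at 6.67 and 10.3 CPM in cluster 8.

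Gal also differed with the depth of a barcode (plot of Gal by depth). Among barcodes with under 1000 UMIs, which the filter removed, Gal reached 138 CPM (96.4 to 192) in US- and 200.0 CPM (171 to 232) in US+. Among nuclei with 2000 to under 4000 UMIs it was 30.7 CPM and 71.9 CPM, and above 16000 UMIs it was 7.58 CPM and 24.2 CPM. The level was thus lower at each step in depth in both libraries, and US+ was higher than US- in every step. Galr1 had no such gradient among the kept nuclei, with 3.51 to 6.095 CPM in US- and 6.33 to 9.18 CPM in US+.

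**Figure D2:**
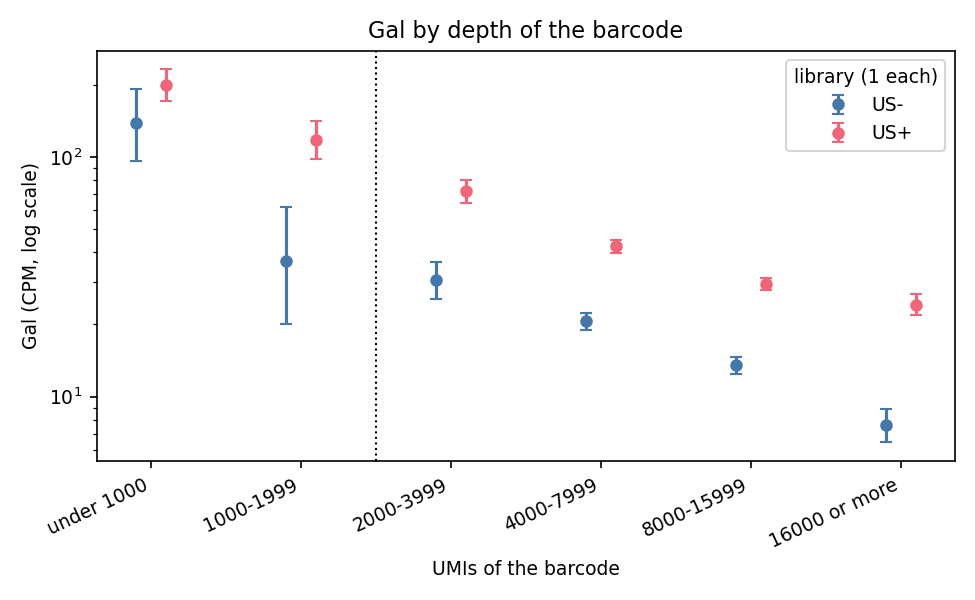
Gal in CPM on a log axis by the number of UMIs of a barcode, in the US- (blue) and US+ (red) library, with exact 95% counting intervals. The dotted line marks the minimum of 2000 UMIs, below which barcodes were left out. Levels were 138 and 200.0 CPM in the shallowest barcodes and 7.58 and 24.2 CPM in the deepest.

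Gal was not alone among peptides in striatal-type nuclei. In that class Crh (corticotropin-releasing hormone) was 3.99-fold higher in US+, Trh (thyrotropin-releasing hormone) 3.30-fold and Vip (vasoactive intestinal peptide) 2.56-fold. Sst (somatostatin) stood at 17.5 and 18.7 CPM there, a ratio of 1.07, and Oxt (oxytocin) at a ratio of 1.34. The striatal-type ratios thus ranged widely from peptide to peptide, and in GABAergic nuclei the same genes had ratios of 1.73 (Crh), 3.21 (Trh), 3.09 (Vip), 1.06 (Sst) and 2.46 (Oxt). The part of free RNA in the ratio of Gal was not tested beyond the subtraction above.

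Nuclei with several Gal UMIs were rare in both libraries and more frequent in US+ (plot of nuclei by number of Gal UMIs). Gal-high nuclei, with at least 3 Gal UMIs, numbered 100 in US- (0.906%, 0.738 to 1.10%) and 204 in US+ (2.06%, 1.79 to 2.36%). They carried 31.1% of all Gal UMIs in US- and 35.3% in US+. Nuclei with at least 10 Gal UMIs numbered 4 and 14, and the highest nucleus held 12 UMIs in US- and 29 in US+. Of the Gal-high nuclei, 76 in US- and 134 in US+ were GABAergic, 24 and 37 were Th-positive, and 10 and 41 were Esr1 nuclei. Only 1 US- and 6 US+ Gal-high nuclei were glutamatergic, and 16 and 51 were nuclei of no class. Striatal-type nuclei held 7 (0.336% of that class, 0.135 to 0.692%) and 13 (2.04%, 1.09 to 3.47%), the background for such nuclei, against shares of 1.40% (1.11 to 1.76%) and 2.60% (2.18 to 3.07%) of GABAergic nuclei. In US+ these intervals overlapped, so a share above that of this class was not shown there. This background depended on how striatal-type nuclei were defined. In cluster 0 (clusters are described below) 0 of 1402 US- and 1 of 337 US+ nuclei were Gal-high. In cluster 8, led by Drd2 and Adora2a, it was 0 of 698 and 0 of 160, and in cluster 36 0 of 43 and 0 of 5.

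**Figure D3:**
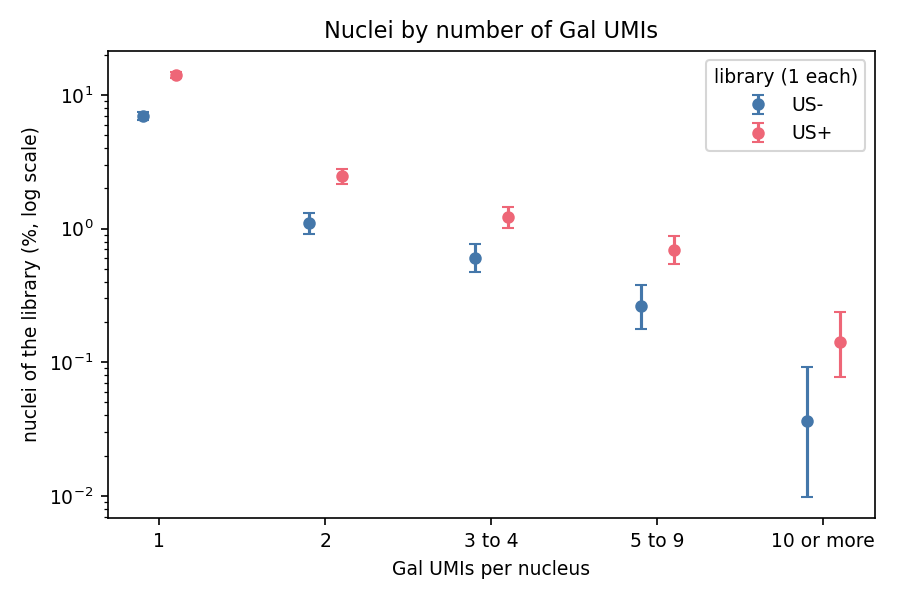
Percent of the nuclei of each library, on a log axis, by the number of Gal UMIs in a nucleus, with exact 95% binomial intervals, for US- (blue) and US+ (red). US+ lies above US- in every group, from 1 Gal UMI (6.99% against 14.2%) to 10 or more (0.0362% against 0.141%).

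Nuclei of both libraries were clustered together without Gal, its receptors and early genes among the features, which gave 37 clusters. The level of Gal differed widely among them (plot of levels per cluster). Cluster 32, whose leading genes beside Gal were Acss3, Rorb, Atp8b1, Th and Atp10a, held 160 nuclei, 51 from US- and 109 from US+. Its Gal level was 441 CPM from 157 UMIs (US-) and 473 CPM from 352 UMIs (US+), a ratio of 1.07 (0.886 to 1.30). Gal-high nuclei were 41.2% of its US- and 45.0% of its US+ nuclei, so the shares were close to each other. Its nuclei held 4 of 5 suprachiasmatic markers in US- and 5 of 5 in US+, but 1 marker gave 1502 of their 1539 CPM and 1382 of their 1441 CPM. Of the others, Vip had 1 UMI in US- and 4 in US+, and Lhx1 had 1 and 2. Vip stood at 2.81 against 3.24 CPM in the rest of the nuclei and at 5.37 against 9.01 CPM. Lhx1 stood at 2.81 against 4.74 CPM and at 2.69 against 6.32 CPM. The interval of each of these ratios spanned 1. Cluster 32 held Gad2, a GABA-synthesizing enzyme, at 284 and 234 CPM, and the vesicular glutamate transporter Slc17a6 at 16.8 and 20.1 CPM. Th was detected in 45.1% and 34.9% of its nuclei, and Slc18a2, the vesicular monoamine transporter, in 56.9% and 42.2%.

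Cluster 6, led by Ecel1, C1ql3, Pgm5 and Reln, came next with 99.9 CPM in US- and 122 CPM in US+, a ratio of 1.22 (1.05 to 1.41). Gal-high nuclei were 10.3% of it in both libraries (42 and 50 nuclei). Cluster 15, led by Esr1 and Ntng1, had 45.6 and 72.1 CPM, a ratio of 1.58 (1.24 to 2.03). Cluster 20, led by St18, Moxd1 and Cyp19a1 (the last encoding aromatase, which makes estradiol), had 37.9 and 46.8 CPM, a ratio of 1.24 (0.829 to 1.88). Cluster 24, a shallow cluster with a median of 3383 UMIs, had 27.5 and 45.6 CPM. It was the fifth with both libraries pooled, and most of its nuclei came from US+ (274 of 330). Within US- clusters 26 and 28 were higher, and within US+ cluster 13. Cluster 13, with Esr1 and Tac2 among its leading genes, had 24.2 and 46.8 CPM, a ratio of 1.94 (1.42 to 2.68), with 1 and 17 Gal-high nuclei. Clusters 26 and 28, led by astrocyte genes such as Slc1a3 and oligodendrocyte genes such as Mobp, had 40.5 and 39.2 CPM and 31.5 and 41.8 CPM, so that this level was also found in nuclei with glial genes.

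The ratio between libraries was smaller where Gal was high. In the 5 clusters of highest pooled level (32, 6, 15, 20 and 24) Gal was at 90.1 (US-) and 108 CPM (US+), a ratio of 1.19 (1.08 to 1.32). These clusters held 8.09% of US- nuclei (893) but 15.6% of US+ nuclei (1543), and they carried 41.0% and 40.3% of all Gal UMIs. In the other 32 clusters Gal stood at 9.44 and 23.6 CPM, a ratio of 2.499 (2.30 to 2.71). Of 35 clusters with at least 10 Gal UMIs, 32 were higher in US+ and 3 were lower, and for 21 the interval of the ratio lay above 1 and for none below it. With equal weight for each of the 35 clusters with at least 20 nuclei per library the ratio was 1.44, and with clusters weighted by their share of US- UMIs it was 1.84, against 2.31 as captured.

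**Figure D4:**
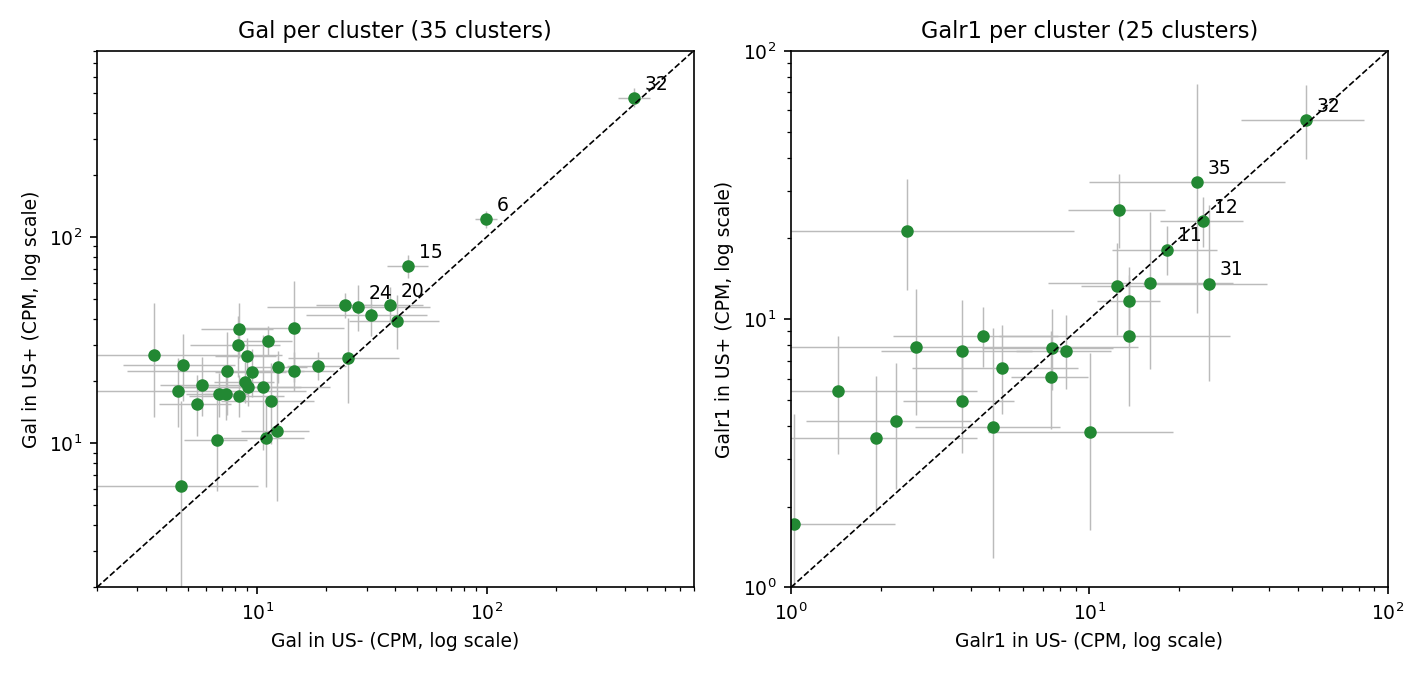
Gal (left, 35 clusters) and Galr1 (right, 25 clusters) in CPM in US+ against US-, on log axes, for clusters with at least 10 UMIs of the gene, with exact 95% counting intervals as grey bars and the line of equal levels dashed. Numbers mark the 5 clusters of highest level. Cluster 32 lies near the line for both genes (441 and 473 CPM of Gal, 53.4 and 55.1 CPM of Galr1), while most clusters of low Gal lie above it.

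GABAergic nuclei with at least 3 Gal UMIs, whose share in US+ overlapped that of striatal-type nuclei as given above, were compared with the other GABAergic nuclei within each library, with genes ordered in US- and read again in US+. Gal-high nuclei were slightly deeper, with medians of 9470 against 8211 UMIs in US- and 9549 against 8146 in US+. The 12 genes with the highest ratio in US- were Acss3, Ltbp2, Atp8b1, Tac2, Tent5a, Gpr139, C1ql3, Reln, Oprk1, Gldn, B130024G19Rik and Gm10475, and all 12 were also higher in Gal-high nuclei of US+, with every interval above 1. Acss3, a mitochondrial enzyme of short-chain fatty acid activation, stood at 71.7 against 5.03 CPM in US- and 29.9 against 7.19 CPM in US+. Tac2, which encodes neurokinin B, stood at 63.1 against 5.99 CPM and at 33.2 against 11.1 CPM. Reln, the extracellular protein reelin, stood at 522 against 88.3 CPM and at 327 against 112 CPM. Oprk1, the kappa opioid receptor, stood at 101.4 against 17.5 CPM and at 52.0 against 19.2 CPM. The ratios of all 12 were smaller in US+, from 1.62 to 4.72, than in US-, from 5.61 to 14.3, where the order was set. Over all classes, clusters 6 and 32 held 42 and 21 of the 100 Gal-high nuclei of US-, and 50 and 49 of the 204 of US+. C1ql3 and Reln were leading genes of cluster 6, and Acss3 and Atp8b1 of cluster 32. How far the 12 genes mark these clusters rather than Gal was not tested. Among 16699 genes with at least 50 UMIs, 14% were over 1.5-fold higher and 19.6% over 1.5-fold lower in Gal-high nuclei of US-, and in US+ it was 8.99% and 12.9% of 16797.

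The 6 genes with the lowest ratio in US- were Gm17234, Asic4, Adora1, Gm19705, Fam163a and 4931423N10Rik, each with 0 UMIs in the 76 Gal-high nuclei, which allows up to 3.71 CPM per gene. They stood at 4.15 to 6.45 CPM in the other GABAergic nuclei, so only small differences could show. In US+ Gal-high nuclei Adora1, the adenosine A1 receptor, stood at 2.60 against 4.18 CPM, and 4931423N10Rik was higher than in the other nuclei, at 11.7 against 6.00 CPM.

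Genes that other work links to preoptic galanin neurons were read from a list of 29. In US-, 13 of the 27 with at least 50 UMIs were over 1.5-fold higher in Gal-high than in other GABAergic nuclei and 7 over 1.5-fold lower, with a median ratio of 1.44 against 1.02 over all genes. In US+ it was 10 and 7 of 28, with a median ratio of 1.16 against 1.02. Th stood at 32.2 against 3.95 CPM in US- and at 22.8 against 3.37 CPM in US+. Calcr, the calcitonin receptor, stood at 96.5 against 17.8 CPM and at 73.5 against 29.0 CPM. Amigo2, a cell adhesion molecule, stood at 32.2 against 5.97 CPM and at 27.98 against 7.41 CPM. Brs3, an orphan receptor of the bombesin family with roles in temperature and energy balance, stood at 7.42 against 1.76 CPM (6 UMIs in Gal-high nuclei) and at 9.11 against 2.73 CPM (14 UMIs). Prlr, the prolactin receptor, stood at 270 against 110 CPM and at 264 against 162 CPM. These 5 genes were over 1.5-fold higher in Gal-high nuclei of both libraries, as were Tac2, Nts (neurotensin, 51.9 against 26.7 and 69.6 against 38.7 CPM) and Cartpt (55.7 against 16.3 and 25.4 against 16.4 CPM).

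Slc18a2 was over 1.5-fold higher in US- alone (ratios of 1.90 and 1.34). Other genes of the list were within 1.5-fold of the other GABAergic nuclei in both libraries. Esr1 had ratios of 1.27 in US- and 1.33 in US+, Pgr (progesterone receptor) 1.14 and 1.22, Moxd1 1.07 and 0.998, Penk 0.701 and 0.929, Crh 0.960 and 0.772, and Oxt 1.02 and 0.908. Sst, Npy, Tac1 and Nos1 were over 1.5-fold lower in Gal-high nuclei of both libraries, Sst at 7.42 against 24.4 CPM and at 14.96 against 25.96 CPM. Other genes lay on opposite sides of 1 in the libraries and past 1.5-fold in at least 1 of them. These were Ddc (1.45 and 0.561), Cyp19a1 (1.61 and 0.274, with 3 UMIs in each), Trh (1.91 and 0.546), Avp (2.05 and 0.856), Pdyn (0.602 and 2.45) and Vip (0 UMIs in US-, and 24 UMIs with a ratio of 1.49 in US+). Gda had ratios of 0.594 and 0.706, and Ghrh and Slc6a3 rested on at most 3 UMIs in Gal-high nuclei.

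Of the hypothalamic transcription factors, 10 of 25 with enough UMIs were over 1.5-fold higher in Gal-high nuclei of US- and 14 over 1.5-fold lower, and in US+ it was 4 and 14 of 27. The highest were Hmx2, at 14.8 against 2.08 CPM in US- and 12.4 against 2.90 CPM in US+, and Zfhx4, at 615 against 173 CPM and 409 against 200.3 CPM. Six3, Lhx1, Onecut3 and Bnc2 had 0 UMIs in Gal-high nuclei of US-, against 1.38 to 16.9 CPM in the others. In US+ they stood at 5.21 against 14.4 CPM, 1.95 against 5.85 CPM, 1.30 against 2.498 CPM and 7.81 against 9.67 CPM, in that order. The median ratio of the list was 0.420 in US- and 0.625 in US+, against 1.02 over all genes in each. Of the torpor and thermoregulation genes, 2 of 9 were over 1.5-fold higher and 4 over 1.5-fold lower in Gal-high nuclei of each library. Brs3 was higher in both, and Trpc4, a cation channel (34.6 against 93.9 and 45.5 against 99.2 CPM), was lower in both. Trpm2 stood at 14.8 CPM (7.67 to 25.9) in Gal-high GABAergic nuclei of US-, against 27.0 CPM (25.5 to 28.6) in those with no Gal UMI. In US+ it was 19.5 CPM (13.2 to 27.9) against 24.9 CPM (23.3 to 26.5), and the intervals overlapped in both libraries. Of 12 peptide processing genes 3 were higher and 1 lower in US-, and 1 and 1 in US+, with Chgb (chromogranin B, 109 against 42.2 and 91.1 against 56.5 CPM) higher in both. Of 17 genes of receptor coupling 4 were higher and 2 lower in US-, and 0 and 1 in US+.

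Among the receptors, Galr1 was the only one with a level that could be followed over classes. Its level over all nuclei was 5.17 CPM from 511 UMIs (US-) and 8.51 CPM from 722 UMIs (US+), a ratio of 1.65 (1.47 to 1.85). Glutamatergic nuclei held the most, 11.1 CPM (8.18 to 14.6) in US- and 18.6 CPM (14.9 to 23.0) in US+. GABAergic nuclei held 4.46 CPM (3.89 to 5.08) and 6.76 CPM (6.05 to 7.53), and striatal-type nuclei 2.34 CPM (1.77 to 3.04) and 3.76 CPM (2.59 to 5.28). The order was thus the reverse of that of Gal for the transmitter classes: the glutamatergic level was 2.48-fold (1.78 to 3.39) that of GABAergic nuclei in US- and 2.76-fold (2.15 to 3.51) in US+. Esr1 nuclei (5.36 and 7.90 CPM) and Th-positive nuclei (7.63 and 14.2 CPM) lay between, with intervals that overlapped those of GABAergic nuclei, except for Th-positive nuclei in US+.

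The ratio of Galr1 between libraries was alike in the classes, from 1.32 in nuclei of no class to 1.87 in Th-positive nuclei, and 1.61 (1.01 to 2.52) in striatal-type nuclei. Cluster 32, the cluster of highest Gal, also held the most Galr1, with 53.4 CPM from 19 UMIs (US-) and 55.1 CPM from 41 UMIs (US+). By pooled level cluster 35, led by Prox1 and Sox6, followed with 23.0 and 32.3 CPM, from only 8 and 5 UMIs. Cluster 12, led by Sim1, Angpt1 and Trh, came next with 24.1 and 23.2 CPM. Cluster 31 had 25.2 and 13.6 CPM (19 and 8 UMIs), and cluster 11, led by Ebf1 and Sim1, had 18.2 and 18.1 CPM. In the 5 clusters of highest Galr1 the ratio between libraries was 0.917 (0.729 to 1.16), and these clusters held 5.16% of US- and 12.2% of US+ nuclei. Outside them it was 1.55 (1.36 to 1.78). With equal weight for each cluster the ratio of Galr1 was 1.14.

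Galr1 was higher in Gal-high GABAergic nuclei than in those without Gal. Among Gal-high GABAergic nuclei Galr1 stood at 16.1 CPM (8.56 to 27.5, 10 of 76 nuclei) in US- and 14.96 CPM (9.49 to 22.5, 17 of 134 nuclei) in US+. Among GABAergic nuclei with no Gal UMI it stood at 4.31 CPM (3.73 to 4.96) and 6.70 CPM (5.90 to 7.58), and with 1 or 2 Gal UMIs at 3.81 and 5.64 CPM. Outside cluster 32, Gal-high nuclei of all classes held 8.95 CPM (3.86 to 17.6, 8 of 79 nuclei) and 9.32 CPM (5.43 to 14.9, 12 of 155 nuclei), with intervals that reach the level of nuclei without Gal (4.99 and 8.51 CPM). Outside cluster 32 a higher Galr1 in Gal-high nuclei was thus not detectable at this depth.

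Galr2 and Galr3 were near the limit of detection. Galr2 had 22 UMIs in 21 US- nuclei and 20 UMIs in 19 US+ nuclei (0.222 and 0.236 CPM, ratio 1.06, 0.549 to 2.03). Galr3 had 19 UMIs in US- and 7 in US+ (0.192 and 0.0825 CPM, ratio 0.429, 0.153 to 1.07). A count of 0 would allow 0.0303 CPM over US- and 0.0354 CPM over US+ nuclei, so both genes were above it in each library. In GABAergic nuclei Galr2 had 11 UMIs in each library and Galr3 had 8 and 2, and in striatal-type nuclei Galr2 had 4 and 6 and Galr3 had 3 and 3. No Galr2 UMI was found in Esr1 nuclei of either library, which allows up to 0.392 CPM in US- and 0.252 CPM in US+. No order among classes could be read for these receptors at this depth.

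The other ligands of the family are Galp, galanin-like peptide, which binds galanin receptors, and Spx, spexin, which acts on GALR2 and GALR3. Galp had 7 UMIs in US- and 8 in US+. Spx had 803 UMIs (8.12 CPM) and 493 UMIs (5.81 CPM), a ratio of 0.716 (0.638 to 0.801), so its direction between the libraries was opposite to that of Gal. In GABAergic nuclei Spx stood at 9.68 and 6.53 CPM. Its level in Gal-high GABAergic nuclei was 4.95 CPM from 4 UMIs (US-) and 7.16 CPM from 11 UMIs (US+).

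Between the libraries, in GABAergic nuclei, 5.21% of 18495 genes were over 1.5-fold higher in US+ and 2.75% over 1.5-fold lower. Of the preoptic galanin neuron genes, 13 of 28 with enough UMIs were over 1.5-fold higher and 0 lower, with a median ratio of 1.46 against 1.02 over all genes. The highest were Trh (3.29 and 10.6 CPM), Vip (3.45 and 10.6 CPM), Cyp19a1 (2.33 and 6.97 CPM) and Ghrh (0.670 and 1.74 CPM), followed by Oxt, Avp, Ddc, Crh and Tac2 with ratios of 1.70 to 2.46. Several were also over 1.5-fold higher in striatal-type nuclei of US+, with ratios of 3.99 (Crh), 3.30 (Trh), 3.22 (Ghrh), 2.56 (Vip), 1.97 (Avp) and 1.61 (Esr1). Oxt (1.34) and Tac2 (1.22) were not. The part of free RNA in these ratios was not tested. Calcr stood at 19.0 and 30.4 CPM, Brs3 at 1.85 and 2.94 CPM, Pgr at 58.7 and 92.8 CPM and Esr1 at 78.4 and 121 CPM. Tac1 (27.1 and 19.5 CPM) and Npy (12.1 and 9.34 CPM) had the lowest ratios, and Th stood at 4.40 and 3.99 CPM, so a higher level of Th in US+ was not detectable (ratio 0.908, 0.745 to 1.11). The remaining genes of the list, Slc18a2, Prlr, Moxd1, Gda, Nts, Penk, Pdyn, Sst, Cartpt, Nos1 and Amigo2, had ratios of 0.939 to 1.47, and Slc6a3 had too few UMIs.

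Of the 12 genes of peptide processing, 1 was over 1.5-fold higher in US+ GABAergic nuclei, Scg2 (secretogranin II, 107 and 169 CPM), with a median ratio of 1.24 over the list. Pcsk1n, an inhibitor of a prohormone convertase, came next with 106.6 and 150.5 CPM, and Chga (chromogranin A, 48.2 and 48.5 CPM) and Pcsk1, a prohormone convertase (18.2 and 19.5 CPM), had the lowest ratios. None of 17 genes of receptor coupling was over 1.5-fold higher or lower, with the highest ratios for Kcnj5 (a GIRK channel subunit, 2.56 and 3.597 CPM) and Rgs4 (8.34 and 10.5 CPM) and the lowest for Gna14 (3.45 and 2.44 CPM) and Rgs7 (646 and 558 CPM). Of the torpor and thermoregulation genes, 2 of 9 were over 1.5-fold higher, Adcyap1 (the peptide PACAP, 1.99 and 4.36 CPM) and Brs3, and 1 was over 1.5-fold lower, Adora1 (6.35 and 4.13 CPM). Trpm2, a warmth-sensitive channel, stood at 26.5 and 24.0 CPM, Opn5 (an opsin) at 3.79 and 4.07 CPM, Lepr (leptin receptor) at 4.38 and 4.71 CPM, Ptger3 (prostaglandin E receptor) at 5.13 and 6.64 CPM, Bdnf at 5.01 and 6.95 CPM and Trpc4 at 92.99 and 97.5 CPM. Qrfp had 22 and 12 UMIs, under the minimum. Of the transcription factors, 7 of 28 were over 1.5-fold higher, led by Otp (0.611 and 2.13 CPM) and Six6 (0.296 and 1.01 CPM), and 5 over 1.5-fold lower, led by Foxp2 (350.2 and 177 CPM) and Bnc2 (16.6 and 9.61 CPM).

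Over the 37 clusters, both libraries pooled, the 8 genes whose log2(CPM + 10) was most like that of Gal were Irs4 (r = 0.776), Ogfrl1 (0.768), Bub3 (0.759), Tasp1 (0.753), Gm34961 (0.752), Cul4b (0.741), D030055H07Rik (0.739) and Hnrnpk (0.738), of 16671 genes ranked by Pearson's r. Without cluster 32 the r of Irs4 was 0.762 and that of Cul4b 0.732, while that of Ogfrl1 was 0.4805 and that of D030055H07Rik 0.434. Th had an r of 0.644, Calcr 0.486, Esr1 0.464 and Galr1 0.395. For Galr1 the 5 most alike were 4930467D21Rik (0.778), Fam118a (0.709), Gmps (0.701), Sar1b (0.693) and Itga4 (0.681). The genes depended on the clusters: at resolutions of 0.4 and 1.5, 2 and 3 of the 8 genes most like Gal were kept, and 0 of the 5 most like Galr1 at either. The r of Gal with Galr1 was 0.111 and 0.3102 there, and with Th 0.396 and 0.582. Clusters share libraries and differ in depth, so these values describe the clusters and nothing more.

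Early genes, which neurons switch on within minutes of activity, were summed over Fos, Fosb and Npas4. Gal-positive nuclei held 90 early-gene UMIs in US- (9.70 CPM) and 1007 in US+ (59.3 CPM), a ratio of 6.11 (4.92 to 7.67). Nuclei with no Gal UMI had 10.6 and 64.3 CPM, a ratio of 6.08 (5.66 to 6.52). Most Gal-positive nuclei held 1 or 2 Gal UMIs (894 of 994 in US- and 1647 of 1851 in US+), and striatal-type nuclei were Gal-positive in 7.02% and 15.9% of cases, so this grouping does not separate nuclei that express Gal from those with free RNA. The ratio between Gal-positive and Gal-negative nuclei (plot of the early-gene sum) was 0.917 (0.730 to 1.14) in US- and 0.922 (0.861 to 0.988) in US+. Gal-positive nuclei of the striatal-type class reached 206 CPM in US+ against 6.48 CPM in US-, and those of this class with no Gal UMI 229 against 10.7 CPM. Outside that class Gal-positive nuclei held 10.5 (US-) and 44.5 CPM (US+), a ratio of 4.23 (3.34 to 5.42), and nuclei with no Gal UMI at 10.6 and 44.8 CPM. The share of nuclei with an early-gene UMI was 7.04% and 19.99% in Gal-positive and 7.02% and 18.9% in Gal-negative nuclei, and after thinning to 2000 UMIs it was 1.71% and 7.94% against 1.69% and 8.56%.

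In US+ the sum of the 3 early genes was lower in Gal-high nuclei than in the others in the GABAergic and Esr1 classes, but not every early gene was. In the GABAergic class they held 10 early-gene UMIs in US- (12.4 CPM) and 58 in US+ (37.7 CPM), a ratio between libraries of 3.05 (1.55 to 6.70). GABAergic nuclei with under 3 Gal UMIs stood at 10.8 and 54.6 CPM, a ratio of 5.07 (4.62 to 5.57). Within US+ the Gal-high level was 0.691 (0.523 to 0.896) of that of the others, and within US- it was 1.15 (0.547 to 2.13). By gene, GABAergic Gal-high nuclei of US+ held Npas4 at 13.7 against 31.1 CPM and Fosb at 7.16 against 11.7 CPM, but Fos at 16.9 against 11.8 CPM. The sum of Fos, Fosb, Nr4a1, Egr1 and Dusp1 was 60.5 against 62.5 CPM. In Esr1 nuclei of US+ Gal-high nuclei held 6 early-gene UMIs (11.1 CPM) against 35.4 CPM in those with under 3 Gal UMIs, a ratio of 0.3135 (0.114 to 0.688), and all 6 UMIs were of Npas4. In Th-positive nuclei the values were 34.3 and 39.9 CPM, a ratio of 0.861 (0.450 to 1.53), an interval that spans 1. Outside the striatal-type class the US+ ratio was 0.794 (0.616 to 1.01), an interval that reaches 1. The groups also differed in clusters. Of the US+ Gal-high nuclei 50, 49 and 26 were in clusters 6, 32 and 15, with early-gene sums of 32.4, 17.5 and 12.7 CPM. Cluster 9, at 587 CPM, held 1, but cluster 14, at 207 CPM, held 11. Within cluster 32 of US+ Gal-high nuclei stood at 16.5 CPM (6 UMIs) and the others at 18.4 CPM (7 UMIs). The part of this mix in the ratios was not tested.

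**Figure D5:**
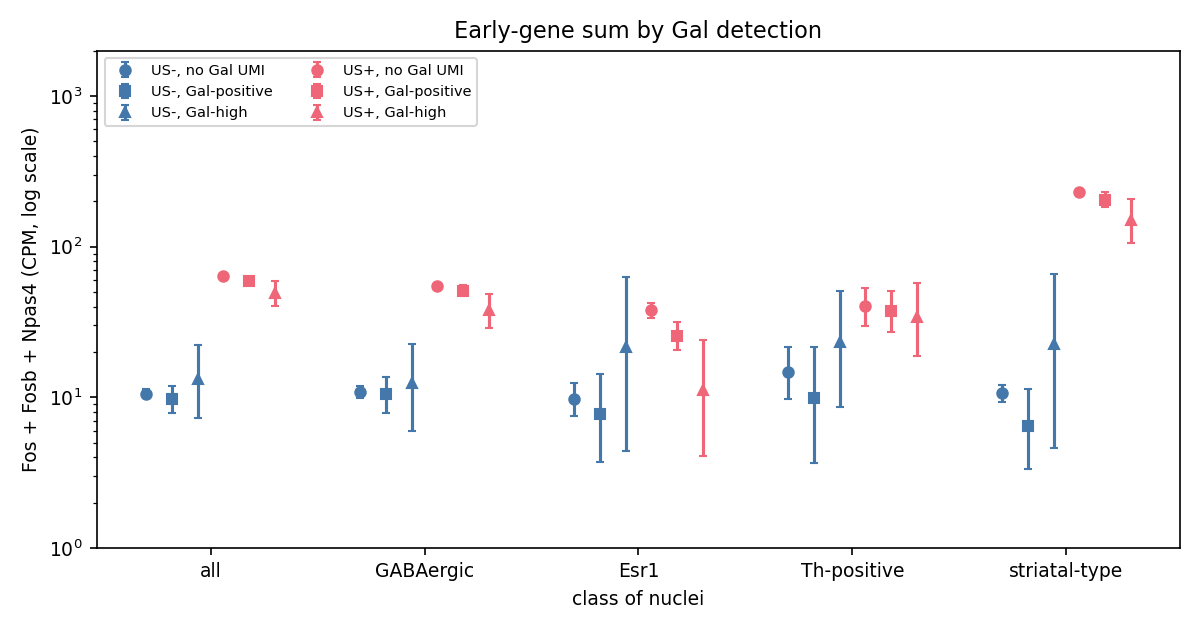
Sum of Fos, Fosb and Npas4 in CPM, on a log axis, by class and library (US- blue, US+ red), for nuclei with no Gal UMI (circles), Gal-positive nuclei with at least 1 Gal UMI (squares) and Gal-high nuclei with at least 3 (triangles), with exact 95% counting intervals. In all nuclei of US+ the sums are 59.3 CPM in Gal-positive nuclei, 64.3 CPM in those without Gal and 48.9 CPM in Gal-high nuclei.

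By cluster, the early-gene sum of cluster 32, the cluster of highest Gal and Galr1, was 14.04 CPM from 5 UMIs (US-) and 17.5 CPM from 13 UMIs (US+), a ratio of 1.24 (0.416 to 4.46). Cluster 6 stood at 17.3 and 32.4 CPM, a ratio of 1.87 (1.34 to 2.63), and cluster 15 at 5.76 and 12.7 CPM, a ratio of 2.21 (1.14 to 4.62). Cluster 20 had a ratio of 1.58 (0.666 to 4.30), and cluster 24 one of 14.4 (2.51 to 578) from 1 and 76 UMIs. Over 35 clusters with at least 10 early-gene UMIs the median ratio was 2.13 and the range 0.845 to 38.4. Of these, 32 were higher in US+, and 6 clusters had a lower ratio than cluster 32. Of the other clusters of highest Galr1, clusters 12 and 11 had ratios of 0.845 (0.550 to 1.32) and 1.47 (0.784 to 2.99), cluster 31, led by Npy and Sst, had 14.2 (7.66 to 29.2), and cluster 35 held 2 and 1 early-gene UMIs. Cluster 19, sixth by Galr1, had 4.72 (2.41 to 9.92). The ratios of Galr1-rich clusters thus ranged widely.

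The members were also compared between nuclei with and without an early-gene UMI. In US+ Gal stood at 29.8 CPM in nuclei with an early-gene UMI and 35.8 CPM in those without, a ratio of 0.833 (0.760 to 0.911), and in GABAergic nuclei the ratio was 0.985 (0.879 to 1.10). Galr1 stood at 5.70 and 9.38 CPM in US+, a ratio of 0.608 (0.493 to 0.743), and in GABAergic nuclei at 4.68 and 7.35 CPM, a ratio of 0.637 (0.462 to 0.864). In US-, where early-gene UMIs were few, the ratios over all nuclei were 0.914 (0.751 to 1.10) for Gal and 0.981 (0.703 to 1.34) for Galr1. In glutamatergic nuclei the ratio of Gal was 1.67 (1.005 to 2.67) in US+ and 0.756 (0.149 to 2.39) in US-, and that of Galr1 0.721 (0.318 to 1.44) in US+ and 1.82 (0.737 to 3.93) in US-, so the direction was not the same in every class. Detection of an early gene depends on depth, and Gal in CPM was lower in deep nuclei, as given above. Early genes also differed among clusters. In US+ clusters 0, 8 and 9 had early-gene sums of 381, 362 and 587 CPM, and pooled Galr1 levels of 0.258, 0.255 and 0.593 CPM. Clusters 10 and 31 had sums of 139 and 207 CPM but Galr1 at 12.7 and 20.1 CPM. The part of this mix in the ratios was not tested.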

How the data were processed

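The values used were deposited as raw UMI counts in 1 sparse matrix per library. The authors had aligned the reads to mm10 and counted them with Cell Ranger 6.1.1 under default settings, with depth equalised to the least saturated library. Whether intronic reads were counted is not given in the sources used here. Nuclei with 200 to 7500 genes, at most 5% mitochondrial UMIs and at least 2000 UMIs were kept. No doublet caller was run, and the bound on genes was the limit on doublets. Striatal-type nuclei had UMIs of at least 4 of 8 genes. GABAergic and glutamatergic nuclei were not striatal-type and had at least 2 transmitter UMIs and more than of the other class. Counts were summed per library and class and given as CPM. Intervals (95%, scipy 1.17.1) were exact Poisson for levels, exact binomial (Clopper-Pearson) for shares and conditional binomial for ratios, and a limit for a count of 0 is 3 counts. Clusters came from 40 principal components and Leiden (leidenalg 0.10.2) at a resolution of 0.8. TMM factors came from edgeR 4.0.16. Ratios, intervals and thinning were tested on simulated data. Named genes were the members, every gene of the ligand, preoptic and torpor lists, the 2 highest and 2 lowest of the other lists, the 8 (Gal) or 5 (Galr1) most alike over clusters and the 12 highest and 6 lowest ratios in US- Gal-high nuclei. Members, lists and classes were chosen with earlier results of these data known. A few genes of the lists are not reported here by name, though counted. The protein sequences of the members were not used here.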

Additional observations from a re-analysis of the deposited data

How the results depend on the processing

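No paired analysis was possible because each group is 1 library, and for the same reason no replicate could be left out. On the log2 scale the ratio of Gal (US+ over US-) was 1.21 in all nuclei, 1.11 in GABAergic, 1.37 in glutamatergic, 1.48 in striatal-type, 0.82 in Esr1 and 0.67 in Th-positive nuclei, and it was above 0 under every alternative run. It left the counting interval of the reported value in these cases. With the striatal-type level subtracted it was 0.86 in all, 0.74 in GABAergic, 0.66 in glutamatergic and 0.35 in Esr1 nuclei. It was 0.53 with equal weight for each cluster, 0.41 in Th-positive nuclei with no upper bounds, 0.31 with at least 3 Th UMIs (26 and 8 Gal UMIs) and 2.81 in glutamatergic nuclei with at least 4 transmitter UMIs (3 and 16 Gal UMIs). It was 1.29 in GABAergic nuclei with striatal-type nuclei taken from clusters, a rule that only cluster 36 met (43 and 5 nuclei). Some alternatives were chosen after seeing the data. Among these, clusters weighted by US- UMIs gave 0.88, striatal-type nuclei taken from the 3 clusters with at least 5 of 8 genes over 2-fold gave 1.05 in that class, and leaving out clusters 26 and 28 kept the Gal ratios within their intervals. For Galr1 in all nuclei (0.72) equal cluster weights gave 0.18 and US- weights 0.20. Galr1 reversed to -0.26 in glutamatergic nuclei with at least 4 transmitter UMIs (11 and 7 UMIs) and to -0.53 in striatal-type clusters (6 and 1 UMIs). The cause was not tested.

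Gal-positive shares (9.00% in US- and 18.7% in US+) became 3.01% and 6.72% after thinning, 0.906% and 2.06% with at least 3 UMIs and 0.0362% and 0.141% with at least 10. The early-gene ratio of Gal-positive nuclei (2.61 on the log2 scale) was 1.88 with at least 3 Gal UMIs, 2.29 in GABAergic nuclei, 2.08 outside the striatal-type class, 2.15 outside the striatal-type clusters, 2.22 for the thinned share and 1.45 for Fos, Fosb, Nr4a1, Egr1 and Dusp1. With at least 10 Gal UMIs US- held no early-gene UMI, so no ratio was given. Genes over 1.5-fold higher in US+ numbered 1544, 2716 with at least 10 UMIs and 745 with at least 200, and lower ones 677, 1255 and 420. Of the 8 genes most like Gal, 2 were kept at a resolution of 0.4 and 3 at 1.5. Of the 5 most like Galr1, 0 were kept at either, a count added after seeing the data. Values for Galr2 and Galr3 are limited by depth, with at most 22 UMIs per library.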
